A study of Mus musculus with 24 samples.

Results

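The comparison set Mysm1 knockout (KO) against Sham across 3 populations of mouse bone marrow cells, haematopoietic stem cells (HSC) and the multipotent progenitors MPP1 and MPP2. It took in 15 of the 24 libraries of the series, 9 KO and 6 Sham, chosen by their labels, and gave each gene a single KO effect with the population as an additive factor. Each population had 3 KO libraries, numbered 1, 2_3 and 4, and 2 Sham libraries, numbered 2_3 and 4. All mice were C57BL/6, 8 to 12 weeks old, and the cells of several mice were pooled for each library. KO mice were Mysm1 fl/fl CreERT2 and received 8 intraperitoneal doses of tamoxifen in corn oil at 0.15 mg per gram over 16 days. Het mice, used here only beside the results, were Mysm1 +/fl CreERT2 and received the same tamoxifen. Sham mice carried Mysm1 fl and received corn oil alone, and the labels do not state whether they carried CreERT2. KO and Sham therefore differed in the deletion and in the tamoxifen, and their parts in a KO against Sham difference cannot be told apart. The promoter that drives CreERT2 is not given in the sources used here.

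Mysm1 is a deubiquitinase that removes ubiquitin from histone H2A, a mark of gene silencing, and is required for blood formation in mouse and human. Its loss in blood cells is known to activate p53, the stress-responsive transcription factor that drives genes of cell cycle arrest and cell death, and the title of the series names ribosomal protein genes as its subject. HSC are mostly quiescent and can rebuild all blood lineages, MPP1 lie close to them, and MPP2 are more proliferative progenitors with a megakaryocyte and erythroid bias. Tamoxifen deletes exon 3 of Mysm1, a coding exon of 71 bases among the 20 of the longest coding transcript, at chr4:94639609-94639679 on the minus strand of mm9. Its length is not a multiple of 3. The sequence shown is the exon that KO cells lose, from the NCBIM37 (mm9) genome:
Mysm1 exon 3: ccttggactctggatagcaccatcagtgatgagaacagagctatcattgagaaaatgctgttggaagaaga

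The RNA was rRNA-depleted and sequenced as stranded paired-end reads of 50 bp. Raw counts per gene totalled 23686835 to 53196624 in the 9 KO libraries and 23123989 to 41137208 in the 6 Sham libraries. Genes with at least 1 count numbered 15740 to 21150 in KO and 17721 to 20426 in Sham, the fewest in HSC KO library 1. Values below are CPM, counts scaled to library size after TMM normalization, which allow a gene to be compared between libraries and not with other genes. KO libraries of 1 number from different populations deviated together from their group means, with correlations of 0.31 to 0.75 over 9 pairs, so the KO libraries were not fully independent. The 6 such pairs of Sham libraries had correlations of -0.096 to 0.103. With 2 Sham libraries per population their deviations mirror each other, so these values cannot decide whether the Sham libraries were independent. Because the KO libraries were not fully independent, counts summed over the 3 populations (3 KO against 2 Sham sums) were also tested. Of 78 named genes past the threshold over all populations, 45 kept the call there and 33 lost it. The summed result is given below only for some genes and lists, and an adjusted p without a setting is not from the sums. Replicates were pools of mice. The fit with population as an additive factor treated the libraries as independent. Its p-values measure the spread between libraries around that fit, which also holds differences of the KO effect between populations. In the summed counts they measure the spread between replicate numbers.

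Mysm1 itself had 75.5 to 119 CPM in KO libraries and 106 to 120 CPM in Sham libraries, a log2 change of -0.18 ± 0.10 (approximate SE) that did not pass the test (edgeR quasi-likelihood, adjusted p = 0.381). Exon 3 makes up 0.957% of the 7419 bases counted for the gene, so whole-gene counts do not check the deletion. Cd48, the surface protein that the sort used to separate MPP2 from HSC and MPP1, followed its gate, with 0.305 to 0.985 CPM in HSC KO and up to 1.58 CPM in HSC Sham libraries, and 33.5 to 56 CPM in MPP2 KO against 18.4 and 30.1 CPM in MPP2 Sham. Of the 6 genes of the sort, Slamf1, which encodes CD150, rose across the populations by 0.48 ± 0.13, and the other 5 did not pass. Its call was lost without any of 10 single libraries, with an adjusted p of up to 0.135 without MPP1 KO library 1.

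Across all populations 516 genes were higher in KO (2.51% of the 20549 tested) and 210 were lower (1.02%) at an adjusted p under 0.05 (edgeR quasi-likelihood test, Benjamini-Hochberg). Under another scaling, the size factors of DESeq2, the split was 345 higher and 237 lower. In the summed counts it was 133 higher and 187 lower of 20732 tested, with 206 of those genes among the 726 called in the 15 libraries. Without the 3 KO libraries numbered 1 it was 114 higher and 129 lower of 20261 tested, with 221 shared. Which direction held more genes was therefore not stable. Leaving out 1 library at a time gave 185 (without MPP1 KO library 1) to 1011 (without MPP2 Sham library 2_3) higher genes and 86 (without MPP1 Sham library 2_3) to 314 (without MPP2 Sham library 2_3) lower genes. The omissions that moved the number of higher genes by over 1.5 times were also those of HSC Sham libraries 2_3 (223) and 4 (255), MPP1 KO library 2_3 (334), MPP1 Sham libraries 2_3 (191) and 4 (197), MPP2 KO library 1 (295) and MPP2 KO library 2_3 (824). For lower genes they were also those of HSC Sham libraries 2_3 (114) and 4 (107), MPP1 KO library 2_3 (134), MPP1 Sham library 4 (112) and MPP2 KO library 1 (135). Of the 516, 505 had a positive log2 change in each population, and of the 210, 201 had a negative one. KO and Sham libraries did not overlap in any population for 256 of the 516 and 94 of the 210, against 1.82% of all genes above and 0.701% below. The median log2 change of the 516 was 0.67 in HSC, 0.61 in MPP1 and 0.34 in MPP2. For the 210 it was -0.85 in HSC, -0.75 in MPP1 and -0.53 in MPP2.

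Het against Sham, in which tamoxifen was also given, called 0 genes (0%) of 21456 in edgeR, where 524 had an unadjusted p under 0.05, and 8 in DESeq2. The genes called in KO against Sham had a median log2 change of 0.11 (the 516) and -0.12 (the 210) in Het against Sham. KO against Het, where both groups had tamoxifen, called 751 genes higher in KO (3.5%) and 251 lower (1.17%). These comparisons share libraries with KO against Sham, so their values are set beside it and are not independent of it.

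**Figure D1:**
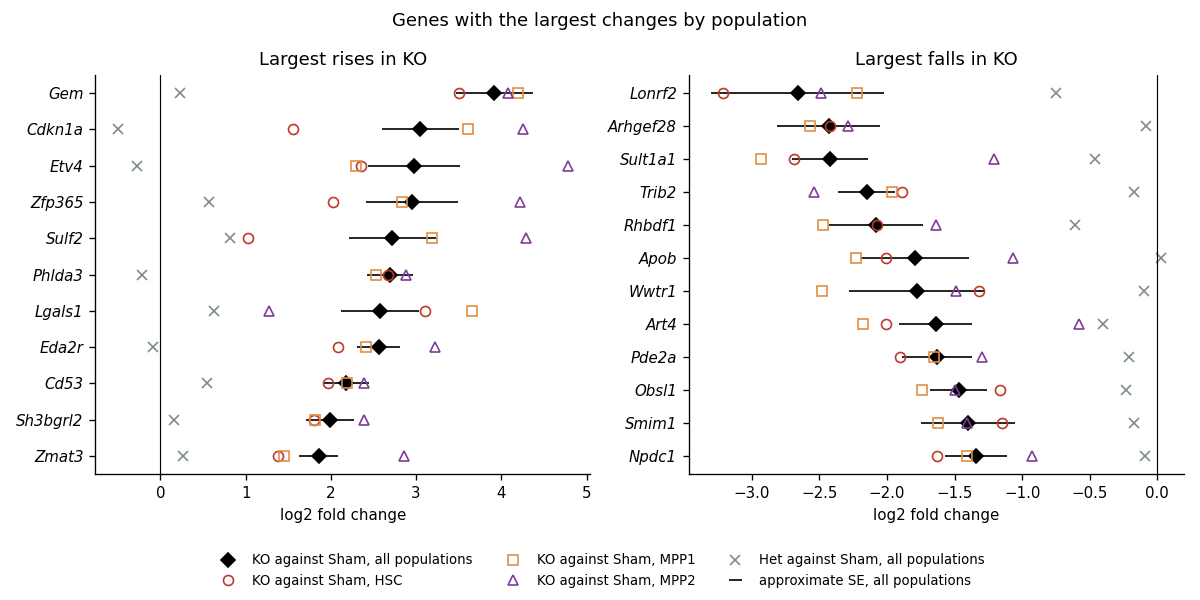
Log2 fold change of 11 of the 12 largest rises (left) and the 12 largest falls (right) among genes past the threshold with at least 5 CPM and no overlap in any population. Black diamonds with bars give the effect over all populations and its approximate SE, coloured open symbols the effect in each population and grey crosses Het against Sham. Gem at 3.92 and Lonrf2 at -2.66 head the lists, and for the 23 genes the Het against Sham values lie between -0.75 and 0.82.

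Targets of p53 made up 5 of the 12 largest rises. The list of p53 target genes had 42 members tested of 44, of which 19 rose, 1 fell and 22 did not pass. Among all genes tested 2.51% rose and 1.02% fell. Its median log2 change was 0.58, against 0.00 over all genes tested, with 0.57 in HSC, 0.39 in MPP1 and 0.85 in MPP2. In Het against Sham the list's median was -0.04 and in KO against Het 0.67. In the summed counts 13 rose and 2 fell, and without the KO libraries numbered 1, 11 rose and 1 fell. With 1 library left out, 11 (without MPP1 KO library 1) to 20 rose, and without MPP1 Sham library 4, 12 rose.

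Cdkn1a encodes p21, the cyclin-dependent kinase inhibitor through which p53 halts the cell cycle. It had 7.02, 4.16 and 7.78 CPM in HSC KO libraries against 1.85 and 2.44 in HSC Sham. In MPP1 it had 10.2, 5.76 and 6.38 CPM in KO against 0.193 and 1.05 in Sham, and in MPP2 22.3, 19.4 and 18.2 CPM in KO against 1.16 and 0.922 in Sham. No KO library overlapped a Sham library of any population, and the log2 change was 3.05 ± 0.45 (adjusted p = 0.00122). Ccng1, which encodes cyclin G1, a p53 target that feeds back on p53 through Mdm2, had 135 to 187 CPM in HSC KO against 93.1 and 102 CPM in HSC Sham, and 292 to 361 CPM in MPP2 KO against 101 and 153 CPM in MPP2 Sham. It rose by 1.06 ± 0.13 (adjusted p = 5.14e-05). Psrc1, a regulator of spindle microtubules, had 27.7 to 92.5 CPM in KO libraries and 5.91 to 24.6 CPM in Sham libraries and rose by 1.76 ± 0.13 with the smallest adjusted p of the list, 1.57e-07. Gtse1, which restrains p53 in the G2 phase, rose by 1.26 ± 0.20 (adjusted p = 0.0014).

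Phlda3, an inhibitor of the survival kinase Akt, had 5.31 to 19.4 CPM in KO libraries and 0.99 to 3.37 CPM in Sham libraries, and rose by 2.70 ± 0.27 on the log2 scale (adjusted p = 5.55e-06). Eda2r, a receptor of the TNF receptor family on chromosome X, had 13.8 to 41.7 CPM in KO and 2.21 to 6.51 CPM in Sham, and rose by 2.56 ± 0.25 (adjusted p = 1.08e-05). Both genes were non-overlapping in all 3 populations. Bax, the pore-forming protein of mitochondrial cell death, had a median of 41 CPM over KO and 16.6 CPM over Sham libraries and rose by 1.11 ± 0.14 (adjusted p = 8.96e-05). Zmat3, an RNA-binding protein, had 41.6 to 61.7 CPM in HSC KO against 18.4 and 22.6 in HSC Sham, and 98.9, 101 and 103 CPM in MPP2 KO against 15.2 and 12.7 in MPP2 Sham. Over all populations it rose by 1.86 ± 0.23 (adjusted p = 0.000418), and its log2 change was 1.38 ± 0.22 in HSC, 1.45 ± 0.22 in MPP1 and 2.86 ± 0.23 in MPP2. That difference between populations passed its own test (adjusted p = 0.0256), as did that of Sulf2, a sulfatase acting on heparan sulfate (1.03 ± 0.46 in HSC, 3.19 ± 0.51 in MPP1 and 4.29 ± 0.54 in MPP2, adjusted p = 0.0358). Both of these interaction calls were lost without MPP2 Sham library 2_3, at adjusted p = 0.116 for Zmat3 and 0.199 for Sulf2. For Zmat3 the call was also lost without MPP2 Sham library 4 (0.0969) and MPP2 KO libraries 1 (0.0666) and 2_3 (0.0653), and for Sulf2 without 8 single libraries in all.

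Not every target moved. Mdm2, the ubiquitin ligase that degrades p53, had 88.3 to 128 CPM in KO and 77.6 to 101 CPM in Sham, a rise of 0.35 ± 0.09 (adjusted p = 0.0426) that was lost without any of 12 single libraries, with an adjusted p of up to 0.205 without MPP1 KO library 1. Ptpn14, a tyrosine phosphatase, was the member that fell (-1.08). Members that did not pass included Pmaip1 at 1.04, Gdf15 at 1.70, Fas at 0.30, Ddb2 at -0.27 and Gadd45a at -0.56. Plk2, a polo-like kinase, had 5.95 to 7.73 CPM in HSC KO against 25.1 and 22.6 CPM in HSC Sham, and 8.92, 4.16 and 4.31 CPM in MPP2 KO against 0 and 0.406 in MPP2 Sham. It was lower in HSC KO and higher in MPP2 KO, without overlap (adjusted p of the difference 0.00418), and its single effect of -0.60 ± 0.94 did not pass. Mdm2, Gtse1, Bax and the members given here without a call were chosen after their values were seen.

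**Figure D2:**
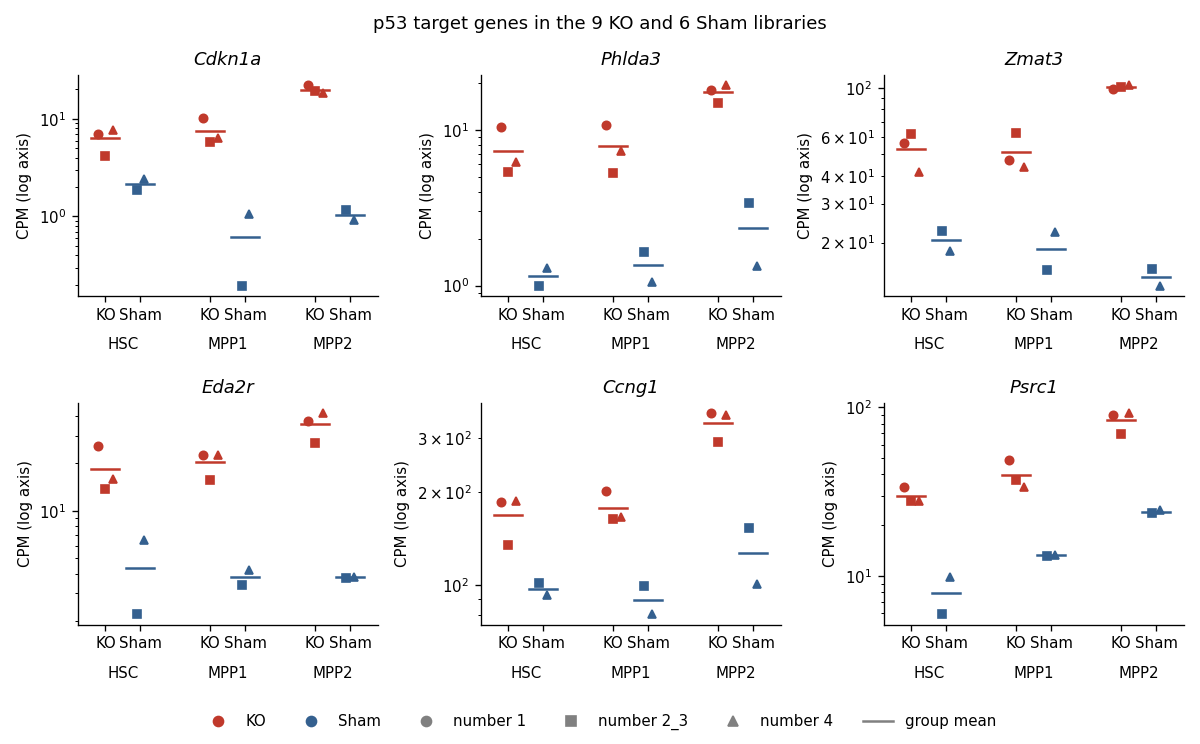
CPM (log axis) of 6 p53 target genes in each of the 9 KO (red) and 6 Sham (blue) libraries by population, with a line at each group mean and a marker shape for each replicate number. Every KO point lies above the Sham points of its population in all 6 genes. Zmat3 spans 98.9 to 103 CPM in MPP2 KO libraries, against 12.7 and 15.2 CPM in MPP2 Sham libraries.

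The promoters of the genes that rose were searched for the p53 response element, a pair of adjacent 10-base half-sites with no spacer. In each half-site the C and the G on either side of the 2 central bases had to match. Mismatches were therefore counted only over the other bases of both half-sites. The element is its own reverse complement, so that a search of 1 strand covers both. The window ran from 250 bases before to 50 after the RefSeq start (GRCm38.p6). With at most 1 mismatch in all it stood in 4 of the 393 risen genes that have a promoter sequence (1.02%), in 0 of 153 fallen genes and in 10 of 14748 tested genes (0.0678%). With at most 2 mismatches the counts were 7 of 393 (1.78%), 0 of 153 and 63 of 14748 (0.427%). The mismatch limit was chosen after the matches were seen, and 3 of the 4 risen genes with at most 1 mismatch are members of the p53 list (3 of its 33 with a promoter sequence, 9.09%). The 4 sites are shown because their genes rose together, with the element in capitals and 5 bases on either side, on the strand of the gene. Cdkn1a lies on chr17:29090923-29090952 (plus strand), Ccng1 on chr11:40755457-40755486 (minus strand), Gtse1 on chr15:85859940-85859969 (plus strand) and Rps27l on chr9:66946291-66946320 (plus strand):
Cdkn1a: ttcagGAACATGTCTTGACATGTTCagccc
Ccng1: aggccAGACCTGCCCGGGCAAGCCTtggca
Gtse1: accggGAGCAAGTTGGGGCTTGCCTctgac
Rps27l: atggcGGGCTTGTTGAGACTTGTCCgggcg
A match is a description of the sequence and not evidence of binding. Rps27l, a p53-responsive relative of the ribosomal protein Rps27 that is not in the p53 list, had 20.5 to 34.1 CPM in HSC KO against 12.9 and 14 CPM in HSC Sham, and rose over all populations by 1.08 ± 0.16 (adjusted p = 0.000505). It was named after its match was seen.

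The other leading rises were not p53 list members. Gem encodes a small GTPase of the RGK family that inhibits voltage-gated calcium channels. It had 252, 117 and 84.6 CPM in HSC KO libraries against 14.1 and 12.6 in HSC Sham. In MPP1 it had 302, 136 and 110 CPM in KO against 10.5 and 9.38 in Sham, and in MPP2 195, 89.8 and 37.7 CPM in KO against 6.68 and 6.01 in Sham. KO library 1 was the highest in each population and library 4 the lowest, and all stood above Sham. The log2 change of 3.92 ± 0.45 (adjusted p = 0.000919) was 3.22 without the KO libraries numbered 1, and in the summed counts it was 3.93 with an adjusted p of 0.292. Etv4, an ETS-family transcription factor induced by receptor tyrosine kinase signalling, had 2.29 to 12.4 CPM in KO and 0.232 to 1.82 CPM in Sham and rose by 2.98 ± 0.54 (adjusted p = 0.00492). Dusp6, a phosphatase that restrains the same MAP kinase pathway, had 25.6 to 53.3 CPM in KO and 14.2 to 27.9 CPM in Sham and rose by 0.90 ± 0.13 (adjusted p = 0.000534). Ccnd1, the G1 cyclin D1, had 86.5 to 145 CPM in HSC KO against 31.9 and 44.7 in HSC Sham, and rose by 1.65 ± 0.20 (adjusted p = 0.000328). Zfp365, a zinc finger protein known as a p53-induced gene in mouse and human, rose by 2.95 ± 0.54 (adjusted p = 0.00742). Sh3bgrl2, a small thioredoxin-fold protein, had 5.11 to 11.9 CPM in KO and 1.3 to 3 CPM in Sham and rose by 1.99 ± 0.28 (adjusted p = 0.000328).

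Cd53, a leukocyte tetraspanin, rose by 2.18 ± 0.27 (adjusted p = 7.45e-05), with 8.4 to 25.3 CPM in KO and 1.59 to 5.8 CPM in Sham. In the fit of all 24 libraries its adjusted p was 0.0766. Lgals1, the secreted lectin galectin-1, had 21 to 27.2 CPM in HSC KO against 2.18 and 3.45 in HSC Sham, and 37.1 to 70.6 CPM in MPP2 KO against 22 and 18.2 in MPP2 Sham. Its rise of 2.58 ± 0.46 (adjusted p = 0.013) was lost without MPP1 Sham library 2_3, at adjusted p = 0.0535. Over all alternatives the call held in 23 of 28, with an adjusted p of up to 0.277.

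Among the 12 largest falls, Sult1a1, a phenol sulfotransferase high in quiescent HSC, had 7.85, 11.4 and 6.95 CPM in HSC KO against 61.4 and 51.2 in HSC Sham. In MPP1 it had 1.82, 6.19 and 4.62 CPM in KO against 36.2 and 27.6 in Sham, while MPP2 libraries held 0.375 to 0.531 CPM in KO and 1.03 and 1.19 in Sham. The log2 change was -2.42 ± 0.28 (adjusted p = 0.000104), with -0.46 in Het against Sham and -1.95 in KO against Het. Trib2, a pseudokinase that promotes degradation of the transcription factor C/EBPα, was highest in MPP2, with 9.21, 17.5 and 24.1 CPM in KO against 128 and 69.1 in Sham. In HSC it had 3.21 to 4.84 CPM in KO against 17.6 and 13.7 in Sham, and over all populations it fell by 2.15 on the log2 scale (SE 0.21, adjusted p = 1.08e-05). Art4, an ADP-ribosyltransferase that carries a blood group antigen in humans, had 22, 45.6 and 54 CPM in HSC KO against 178 and 148 in HSC Sham, and fell by 1.64 (SE 0.27, adjusted p = 0.00847).

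Arhgef28, a guanine nucleotide exchange factor of small GTPases, had 1.06 to 6.92 CPM in KO libraries and 12.1 to 25.8 CPM in Sham libraries, without overlap. It fell by 2.43 (SE 0.38, adjusted p = 0.00358), with -0.08 in Het against Sham, and its adjusted p in the summed counts was 0.125. Lonrf2, a RING finger protein, had 0 to 2.47 CPM in KO and 0.61 to 10.5 CPM in Sham, and its fitted change of -2.66 ± 0.64 (adjusted p = 0.0281) was lost without any of 8 single libraries, at up to 0.0816 without HSC Sham library 2_3. Pde2a, a cyclic nucleotide phosphodiesterase, fell by 1.63 (SE 0.26, adjusted p = 0.00104), and Rhbdf1, an inactive rhomboid that regulates growth factor shedding, fell by 2.08 (SE 0.35, adjusted p = 0.00185). Wwtr1, the Hippo pathway coactivator TAZ, had the weakest call of the 12 falls at adjusted p = 0.0494, and it was lost under the other scaling (0.0527) and without any of 11 single libraries, at up to 0.142 without MPP1 Sham library 2_3. Apob, the structural protein of low-density lipoprotein, had 0.246 to 3.32 CPM in KO and 3.06 to 11 CPM in Sham, and its call (adjusted p = 0.0161) was lost without HSC Sham library 4 (0.0503) and MPP1 Sham library 4 (0.0507). Smim1, a small membrane protein that carries the Vel blood group in humans, fell by 1.40 (SE 0.35, adjusted p = 0.0284), a call lost without any of 5 single libraries, at up to 0.0819 without MPP1 Sham library 2_3. Obsl1, a cytoskeletal linker, fell by 1.47 and Npdc1, a neuronal differentiation protein, by 1.34, and neither lost its call without any single library.

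Of 46 large-subunit genes of the cytosolic ribosome 15 fell and 0 rose, where 1.02% of all genes tested fell and 2.51% rose. This left 31 that missed the threshold. Among 32 small-subunit genes 10 fell and 0 rose, which left 22. The median log2 change was -0.25 for the large and -0.16 for the small subunit, against 0.00 over all genes tested. By population the large-subunit median was -0.37 in HSC, -0.07 in MPP1 and -0.39 in MPP2, and the small-subunit median -0.22, 0.04 and -0.26. In Het against Sham the large- and small-subunit medians were -0.04 and -0.05, and in KO against Het -0.20 and -0.05. These values differed by population. In MPP2 the medians were -0.27 and -0.28 in Het against Sham and -0.06 and 0.06 in KO against Het, while in HSC they were 0.03 and 0.03 in Het against Sham and -0.38 and -0.21 in KO against Het. The summed CPM of the large-subunit genes was 37910 to 42930 in HSC KO against 42310 and 58610 in HSC Sham, 37460 to 45620 in MPP1 KO against 39270 and 45450 in MPP1 Sham, and 38810 to 46500 in MPP2 KO against 50240 and 57220 in MPP2 Sham. KO and Sham thus overlapped in HSC and MPP1 and not in MPP2. The counts of calls depended on how the libraries were treated. Without the KO libraries numbered 1, 20 large-subunit and 11 small-subunit genes fell, and in the summed counts 1 of each fell. Leaving out 1 library at a time, 6 (without HSC Sham library 4 or MPP1 Sham library 2_3) to 21 (without MPP1 KO library 1) large-subunit genes fell, and 8 or 9 did without HSC KO libraries 1 and 2_3, MPP1 KO libraries 2_3 and 4 and MPP2 KO library 4. In bulk libraries fewer cells with high levels and less RNA per cell cannot be told apart.

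Among the single genes, Rpl36a had 288, 272 and 320 CPM in HSC KO against 503 and 609 in HSC Sham. In MPP1 it had 369, 286 and 290 CPM in KO against 538 and 404 in Sham, and in MPP2 394, 297 and 334 CPM in KO against 639 and 519 in Sham. Every KO library was below every Sham library, and the log2 change was -0.76 ± 0.11 (adjusted p = 0.000328, and 0.0339 in the summed counts). Rpl13 had 581 to 698 CPM in KO libraries, below the 832 CPM of the lowest Sham library, and fell by 0.67 (SE 0.10, adjusted p = 0.000533). Rps14, whose loss is known from the human 5q- syndrome of failed red cell production, had 336, 324 and 430 CPM in HSC KO against 480 and 924 in HSC Sham, and fell by 0.77 (SE 0.12, adjusted p = 0.000766). The 2 HSC Sham libraries were far apart, number 4 being the higher, as for Rps3 (903 and 1408 CPM) and Rps18 (679 and 1033 CPM). Rps3, which lines the mRNA entry channel, fell by 0.67 (SE 0.10, adjusted p = 0.000858), and Rps18, a protein of the head of the small subunit, by 0.64 (SE 0.10, adjusted p = 0.0014). In the summed counts the adjusted p was 0.0927 for Rpl13, 0.0195 for Rps14, 0.107 for Rps3 and 0.117 for Rps18. Ribosomal protein genes have many processed pseudogenes, so their counts are uncertain to the extent that the counting split reads among copies.

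Genes that build the ribosome did not pass the test over all populations. Of 42 genes that serve ribosome assembly or transcription by RNA polymerase I, 0 passed there in either direction and 40 had a positive value. The median log2 change was 0.26 (0.48 in HSC, 0.43 in MPP1 and -0.12 in MPP2). In the test of HSC 5 of the 42 rose and 0 fell, where 3.72% of all genes rose and 0.71% fell. That HSC count was not read under the alternatives. In MPP1 and in MPP2 0 passed. Bop1, a factor of large-subunit maturation, had 42.2 to 57.7 CPM in HSC KO against 26.3 and 32.7 in HSC Sham, and its change over all populations of 0.43 ± 0.13 did not pass (adjusted p = 0.0813).

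**Figure D3:**
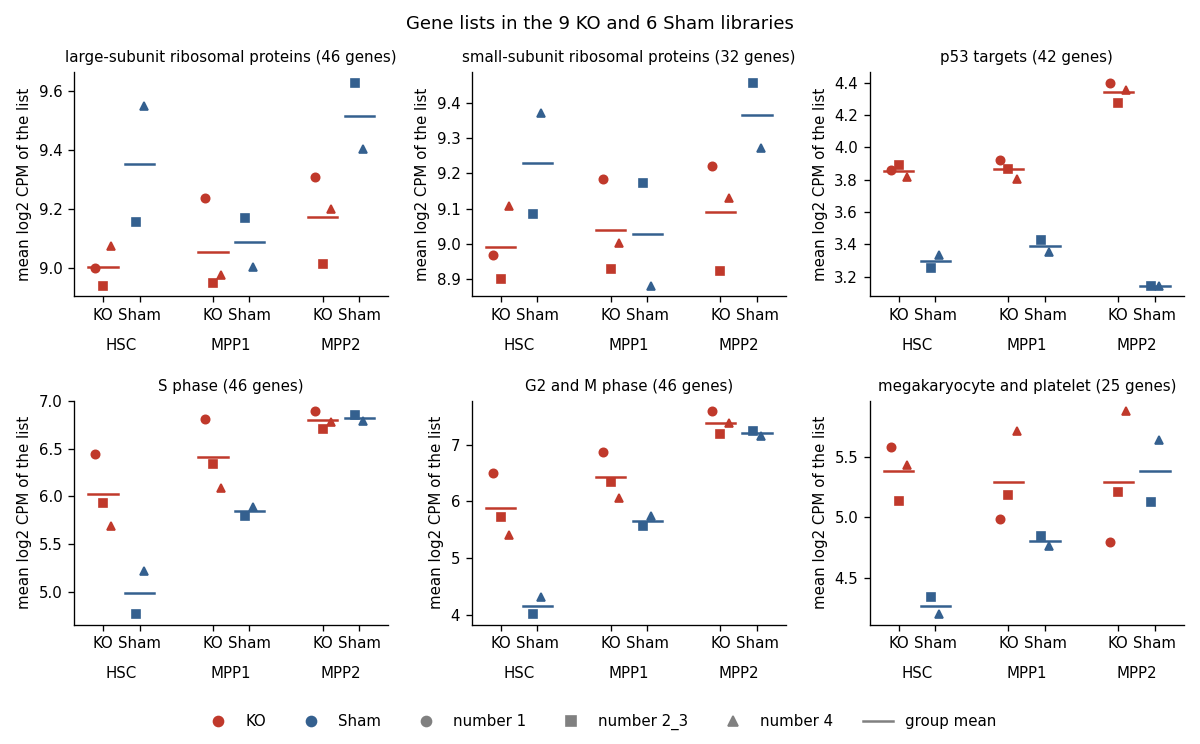
Mean log2 CPM of 6 gene lists in each of the 9 KO (red) and 6 Sham (blue) libraries by population, with group means as lines and marker shapes for replicate numbers. p53 targets stand above Sham in every KO library. Ribosomal proteins overlap between KO and Sham in MPP1, and those of the small subunit also overlap in HSC. The S phase and the G2 and M phase lists differ most in HSC.

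Cell cycle genes were higher in KO stem cells. In HSC, 27 of 46 genes of S phase and 36 of 46 of G2 and mitosis rose and 0 fell, where 3.72% of all genes rose and 0.71% fell. These HSC list counts were not read under the alternatives. All HSC calls numbered 910, against 180 without HSC Sham library 2_3, 452 without HSC KO library 1 and 490 with all 24 libraries. Over all populations 3 genes of S phase and 6 of G2 and mitosis rose, where 2.51% of all genes tested rose. These counts depended on the method. In S phase and in G2 and mitosis they were 2 and 1 in summed counts, 0 and 2 with limma-voom and a shared correlation, and 1 and 2 without the KO libraries numbered 1, but 22 and 42 with DESeq2 and 28 and 38 as the mean of the 3 population effects. With 1 library left out, S phase had 0 to 13 (12 and 13 without MPP2 KO and MPP2 Sham libraries 2_3), the 0 without any of HSC Sham libraries 2_3 and 4, MPP1 Sham libraries 2_3 and 4 and MPP1 KO library 1, and G2 and mitosis had 2 (without any of those 4 Sham libraries) to 12 (without HSC KO library 1 or MPP2 KO library 2_3). The median log2 change of the G2 and mitosis list was 1.79 in HSC, 0.79 in MPP1 and 0.20 in MPP2, and that of the S phase list 1.07, 0.65 and -0.03. In HSC, Het against Sham had a median of 0.47 for G2 and mitosis and 0.27 for S phase, and KO against Het had 1.30 and 0.78. Mki67, the proliferation antigen Ki-67, had 1882, 778 and 633 CPM in HSC KO against 246 and 219 in HSC Sham, and 3405, 2648 and 3159 CPM in MPP2 KO against 2911 and 2590 in MPP2 Sham. KO library 1 was the highest KO library in each population, and the HSC change of 2.24 ± 0.45 passed (adjusted p = 0.022). Without the KO libraries numbered 1 the median over all populations was 0.61 for G2 and mitosis and 0.28 for S phase, against 0.89 and 0.53 with them.

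Several cell cycle genes passed the test of a difference in KO effect between populations in the fit without Het libraries. That fit called 138 genes, and the fit of all 24 libraries called 1 of 21456. At most 1 of the genes named here can therefore have passed with all 24 libraries. Ckap2l, a spindle pole protein, had 99.2, 63.6 and 69.5 CPM in HSC KO against 11.9 and 13.5 in HSC Sham, and 166, 136 and 184 CPM in MPP2 KO against 136 and 165 in MPP2 Sham. Its log2 change was 2.61 ± 0.21 in HSC, 0.87 ± 0.20 in MPP1 and 0.11 ± 0.19 in MPP2 (adjusted p of the difference 0.000668). Zwilch, a kinetochore checkpoint protein, changed by 2.70 ± 0.27, 0.76 ± 0.24 and -0.18 ± 0.23 in the same order (0.00174), and Clspn, the checkpoint mediator claspin, by 1.85 ± 0.20, 0.59 ± 0.19 and -0.07 ± 0.19 (0.00418). Plk1, the mitotic polo-like kinase, had 33.4, 23.7 and 16.3 CPM in HSC KO against 3.56 and 3.9 in HSC Sham. Cenpa, the centromeric histone, had 46.4, 29.6 and 19 CPM in HSC KO against 4.06 and 5.63 in HSC Sham, and 58.4 to 80.2 CPM in MPP2 KO against 100 and 75.5 in MPP2 Sham. For both the level in HSC KO lay above HSC Sham without overlap. The adjusted p of the difference was 0.0414 for Plk1 and 0.0195 for Cenpa. It was lost without any of 10 single libraries for Plk1, at up to 0.274 without HSC Sham library 2_3, and without 4 for Cenpa, at up to 0.148 without MPP2 Sham library 2_3. Plk1, Cenpa and Mki67 were named after their values were seen.

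Stem cell genes that passed the test of HSC fell, and those that passed the test of MPP2 rose. Of 56 tested genes that mark stem cells or their quiescence, 1 rose and 4 fell over all populations, where 2.51% of all genes tested rose and 1.02% fell. The list's median log2 change was -0.06. In summed counts 0 rose and 7 fell, with limma-voom and a shared correlation 0 and 8, and without the KO libraries numbered 1 0 and 2. With 1 library left out, 2 (without any HSC library, MPP1 KO library 1 or 2_3, either MPP1 Sham library or MPP2 KO library 1) to 9 (without MPP2 Sham library 2_3) fell, and 7 did without MPP2 KO library 2_3. Grb10, an imprinted adaptor of growth factor receptors, was 1 of the 4 and had 66.8 to 116 CPM in KO and 92 to 162 CPM in Sham, a fall of 0.58 (SE 0.10, adjusted p = 0.00233) without overlap in any population. By population the median was -0.35 in HSC, -0.17 in MPP1 and 0.29 in MPP2. In HSC 0 rose and 6 fell, where 3.72% of all genes rose and 0.71% fell. In MPP2 6 rose and 0 fell, where 0.861% of all genes rose and 0.229% fell. The genes below are given for their difference between populations, and their calls in HSC or MPP2 are not reported here. Procr, which encodes the endothelial protein C receptor used to sort HSC, had 39.6, 49.2 and 56.9 CPM in HSC KO against 65.2 and 71.9 in HSC Sham, and 8.53, 11.9 and 4.06 CPM in MPP2 KO against 0.958 and 1.77 in MPP2 Sham. Mecom, a transcription factor required for HSC self-renewal, had 80.4, 88.8 and 67.4 CPM in MPP2 KO against 22.7 and 38.6 in MPP2 Sham, and 207 to 239 CPM in HSC KO against 258 and 233 in HSC Sham. The groups overlapped in HSC and not in MPP2. Hlf, a transcription factor of HSC quiescence, changed by -0.56 ± 0.21 in HSC and 1.39 ± 0.22 in MPP2, and Gata3 by -0.38 ± 0.31 and 2.25 ± 0.36. Socs2, an inhibitor of cytokine signalling, had 4.76 to 6.4 CPM in HSC KO against 22.7 and 22.1 in HSC Sham, and 3.52 to 4.81 CPM in MPP2 KO against 2.09 and 3.25 in MPP2 Sham.

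Ly6a, the Sca-1 gene of the sort, changed by 0.03 ± 0.30 in HSC and 2.43 ± 0.35 in MPP2, with 8.35, 5.95 and 4.59 CPM in MPP2 KO against 0.813 and 1.55 in MPP2 Sham. The difference between populations passed for all 6 of these genes in the 15 libraries, at adjusted p of 0.0284 for Procr, 0.0112 for Mecom, 0.00707 for Hlf, 0.0153 for Gata3, 0.0195 for Socs2 and 0.0214 for Ly6a. For each of them it was lost without MPP2 Sham library 2_3, at 0.339, 0.179, 0.0865, 0.225, 0.255 and 0.318 in that order. Single libraries that also ended a call were HSC Sham 2_3, HSC Sham 4, MPP1 Sham 2_3 and MPP2 KO 1 for Procr, MPP2 KO 1 for Gata3 and Ly6a, and HSC Sham 2_3 for Socs2. These members apart from Ly6a were named after their values were seen. In total 138 genes (0.672%) passed the test of a difference between populations, against 1 in the fit of all 24 libraries. Leaving out 1 library at a time gave 21 (without MPP2 Sham library 2_3) to 238 (without HSC KO library 4), with 62 without HSC Sham library 2_3, 70 without MPP1 Sham library 2_3, 92 without MPP1 Sham library 4 and 40 without either MPP2 KO library 1 or 2_3. Fmnl2, a formin that builds actin filaments, was among the strongest of these genes (adjusted p = 0.00418, and 0.0672 without MPP2 Sham library 2_3), with -0.92 ± 0.20 in HSC and 1.02 ± 0.22 in MPP2.

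**Figure D4:**
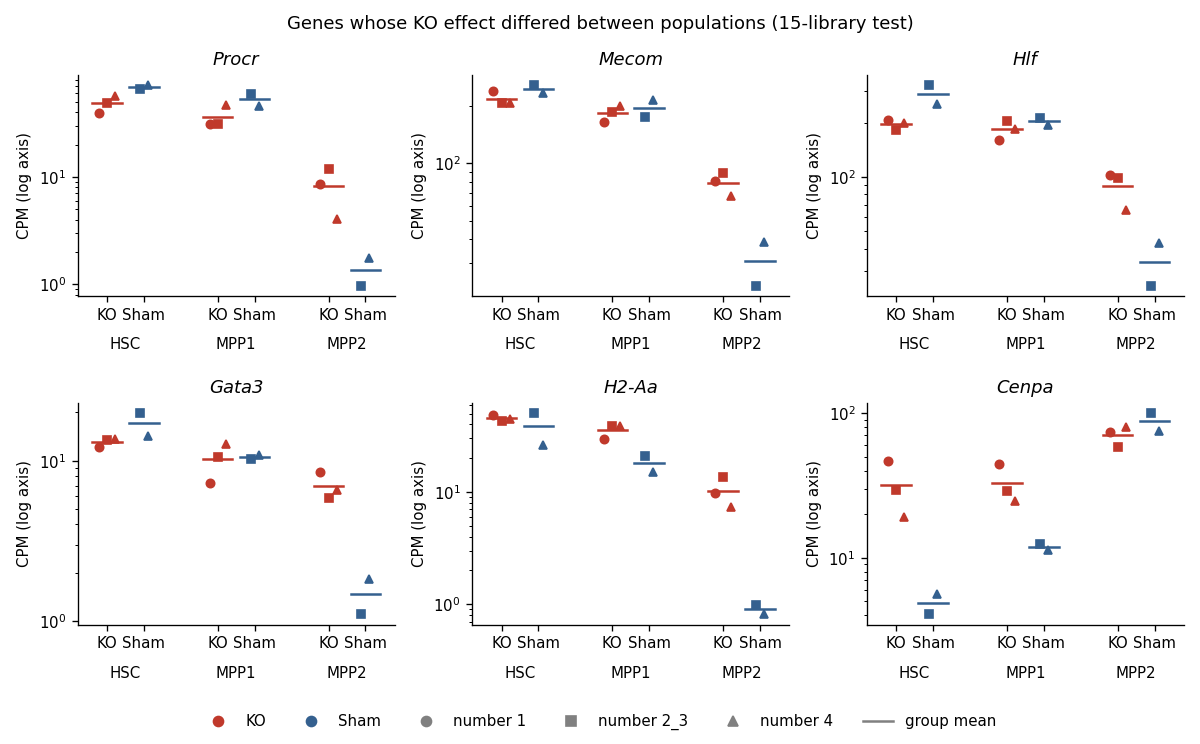
CPM (log axis) of 6 genes past the 15-library test of a difference between populations, in each KO (red) and Sham (blue) library, with group means as lines. Procr, Mecom, Hlf, Gata3 and H2-Aa were higher in MPP2 KO than in MPP2 Sham without overlap, and Cenpa was higher in KO in HSC and MPP1 and overlapped in MPP2.

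Of 25 megakaryocyte and platelet genes 5 rose and 1 fell, where 2.51% of all genes tested rose and 1.02% fell, as for each list below. The counts were 3 and 1 in summed counts, 2 and 1 with limma-voom and a shared correlation, and 1 and 0 without the KO libraries numbered 1. Without any of HSC Sham libraries 2_3 and 4 and MPP1 Sham libraries 2_3 and 4, 1 rose and 0 fell, and without HSC KO library 4, MPP1 KO libraries 1, 2_3 and 4 or MPP2 KO library 4, 2 or 3 rose. The list had a median log2 change of 1.16 in HSC, 0.64 in MPP1 and -0.01 in MPP2. Selp, the P-selectin of platelets, had 83.1, 79.1 and 79.7 CPM in HSC KO against 25.3 and 17 in HSC Sham, and rose 2.83-fold over all populations (adjusted p = 5.36e-06). Of 24 erythroid genes 1 fell, Fech, the last enzyme of haem synthesis, at -0.51 ± 0.14 (adjusted p = 0.0439), and its call was lost without any of 10 single libraries, at up to 0.141 without HSC Sham library 4. Of 25 granulocyte and monocyte genes 2 rose, among them Nkg7, a granule protein of cytotoxic cells, with 5.66 to 7.16 CPM in HSC KO against 1.65 and 0.716 in HSC Sham (1.65 ± 0.25 over all populations, adjusted p = 0.000658). Of 27 lymphoid priming genes 2 rose and 1 fell, Satb1, a chromatin organiser of lymphoid fate, which had 2.71 to 7.53 CPM in KO and 7.01 to 16.6 CPM in Sham (-1.03 ± 0.21, adjusted p = 0.00879).

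Antigen presentation genes rose where they passed. All 12 MHC class II genes had a positive log2 change and 2 passed, with a median of 0.53, where 2.51% of all genes tested rose and 1.02% fell. H2-Ab1, the class II beta chain, had 76 to 113 CPM in HSC KO against 70.7 and 51.2 in HSC Sham, and 37.9 to 42.2 CPM in MPP2 KO against 21.5 and 22 in MPP2 Sham, a rise of 0.82 ± 0.11 (adjusted p = 0.000263). H2-Aa, the alpha chain, changed by 0.24 ± 0.27 in HSC, 0.98 ± 0.28 in MPP1 and 3.50 ± 0.34 in MPP2, where it had 9.85, 13.6 and 7.31 CPM in KO against 0.987 and 0.812 in Sham (adjusted p of the difference 0.00248). H2-Eb1 differed likewise (0.0197), with 0.89 ± 0.26 in HSC and 3.08 ± 0.31 in MPP2. Its interaction call was lost without MPP2 Sham 2_3 (0.255), MPP2 KO 2_3 (0.0577) and HSC Sham 2_3 (0.0564). Of 22 MHC class I and peptide loading genes 6 rose and 0 fell, with a median of 0.25, among them Tap1, the peptide transporter, at 0.49 ± 0.10 (adjusted p = 0.00918) and Psmb9, an immunoproteasome subunit, at 0.56 ± 0.11 (adjusted p = 0.00574). In the summed counts 0 of these 22 passed.

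Of 50 interferon response genes 6 rose and 4 fell, with a median of 0.03, where 2.51% of all genes tested rose and 1.02% fell. In HSC 1 rose and 2 fell, in MPP1 1 and 1, and in MPP2 7 and 0, where 0.861% of all genes rose and 0.229% fell. The counts of single populations were not read under the alternatives. Over all populations the counts were 1 and 4 in summed counts, 3 and 4 with limma-voom and a shared correlation, and 2 and 1 without the KO libraries numbered 1. Without HSC Sham library 2_3 or MPP1 Sham library 2_3, 6 rose and 1 fell, and 2 fell without HSC Sham library 4, MPP1 KO library 2_3, MPP1 Sham library 4 or MPP2 KO library 1. Those that rose included Ifi47, a GTPase of pathogen defence, with 58.8 to 80.9 CPM in KO and 31.3 to 41.2 CPM in Sham (0.92 ± 0.10, adjusted p = 2.53e-05). Those that fell were Ifit1, Ifit3, Ifi44 and Ifitm1. Ifit1, an antiviral protein that binds viral RNA, had 4.46 to 26.6 CPM in KO and 11 to 44.8 CPM in Sham (-0.85 ± 0.16, adjusted p = 0.00618), and KO lay below Sham in each population.

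**Figure D5:**
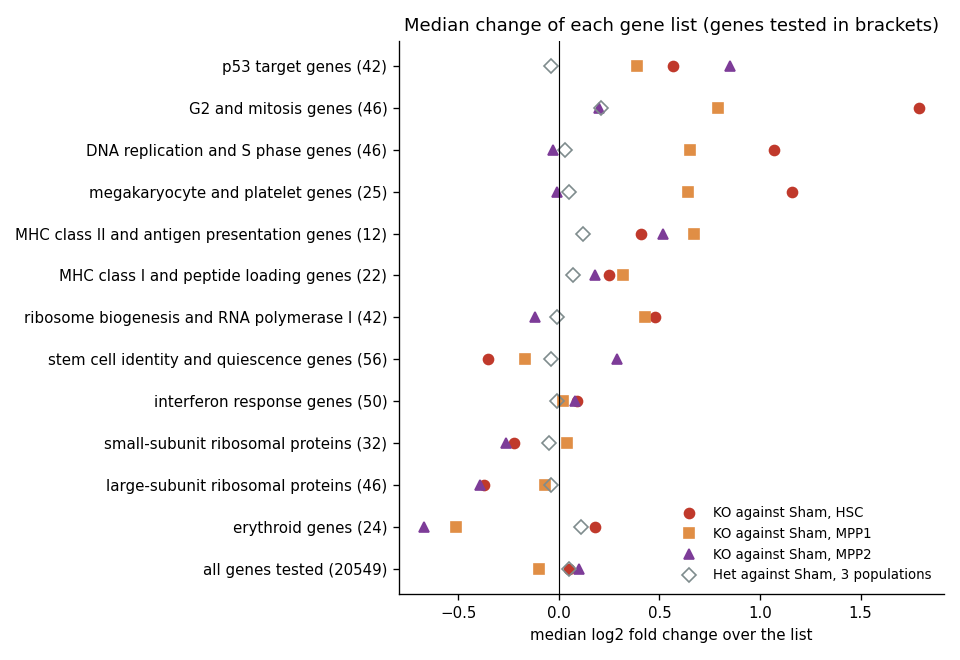
Median log2 fold change of 12 gene lists and of all genes tested, for KO against Sham in HSC, MPP1 and MPP2 and for Het against Sham over the 3 populations, with the number of genes tested in brackets. The G2 and mitosis list had 1.79 in HSC, 0.79 in MPP1 and 0.20 in MPP2, p53 targets lie between 0.39 and 0.85, and the large-subunit ribosomal proteins between -0.39 and -0.07.

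Since Sham mice had no tamoxifen, lists of drug and stress response were read as well. Of 46 immediate early and dissociation stress genes 5 rose and 1 fell, with a median of -0.13. For these lists too, the shares over all genes tested were 2.51% higher and 1.02% lower. Gem belongs to this list, as does Ier5, a regulator of heat shock factor, which had 38.5 to 55 CPM in KO and 18.9 to 29.1 CPM in Sham (0.93 ± 0.10, adjusted p = 2.5e-05). Of 26 oestrogen receptor target and tamoxifen response genes 2 rose, Ccnd1 and Nrip1, and 1 fell, Hspb8, with a median of -0.21. Nrip1, a nuclear receptor corepressor, had 130 to 163 CPM in KO and 102 to 144 CPM in Sham (0.36 ± 0.09, adjusted p = 0.0287), and the call was lost without any of 7 single libraries, at up to 0.166 without MPP1 KO library 1. Hspb8, a small heat shock protein, had 0 to 1.52 CPM in KO and 0.664 to 8.53 CPM in Sham (adjusted p = 0.0453), a call lost without any of 11 single libraries, at up to 0.113 without HSC Sham library 4. Of 29 AhR, NRF2 and sterol synthesis genes 2 rose and 1 fell, with a median of -0.13. In Het against Sham, where Het mice had received tamoxifen, the medians of these 3 lists were -0.01, 0.07 and -0.02. Of 12 H2A deubiquitinases 1 rose, Usp44, with 7 to 12.1 CPM in KO and 1.55 to 7.44 CPM in Sham (1.37 ± 0.26, adjusted p = 0.00542).

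Markers of other cell types varied between libraries. All 12 neutrophil markers tested had negative values and 0 passed, with a median of -1.55. Their summed level was 64.2 to 264.1 CPM in KO libraries and 116.7 to 342.6 CPM in 5 of the 6 Sham libraries, against 1200 CPM in MPP1 Sham library 2_3. Without that library 277 genes were called, 191 higher and 86 lower, of which 274 were among the 726. Markers of B cells, of T and NK cells and of macrophages had 0 called genes over all populations. Among those of stroma Pecam1, an endothelial adhesion protein that blood cells also carry, rose by 0.42 ± 0.11 (adjusted p = 0.0423, lost without any of 12 single libraries, at up to 0.124 without HSC Sham library 4). Pdgfrb, a receptor of mesenchymal cells, fell by 0.99 (SE 0.23, adjusted p = 0.0202, and 0.0738 without HSC Sham library 2_3). Summed levels were 16.4 to 80.5 CPM in KO and 14.8 to 58.3 CPM in Sham for B cells and 15 to 61.7 CPM in KO and 14.8 to 61.1 CPM in Sham for T and NK cells. For macrophages they were 520.1, 331.4 and 277.9 CPM in the HSC, MPP1 and MPP2 KO libraries numbered 2_3, 86.7 to 138.7 CPM in the other 6 KO libraries and 82.55 to 288.6 CPM in Sham. Their part in the results was not tested.

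Within single populations the number of calls depended on single libraries. In HSC 764 genes rose and 146 fell, in MPP1 46 rose (0.224%) and 19 fell (0.0925%), and in MPP2 177 rose and 47 fell, each with 3 KO against 2 Sham libraries. Leaving out 1 library at a time gave 180 (without HSC Sham library 2_3) to 1090 calls in HSC, with 452 without HSC KO library 1. It gave 6 (without MPP1 Sham library 4) to 138 (without HSC KO library 1) in MPP1, with 12 without MPP1 Sham library 2_3, 27 without MPP1 KO library 1 and 104 and 100 without MPP2 Sham libraries 2_3 and 4. In MPP2 it gave 46 (without MPP2 Sham library 2_3) to 330 (without MPP2 Sham library 4), with 120 and 132 without MPP2 KO libraries 1 and 2_3. Cxcr1, a chemokine receptor, had 6.59, 4.4 and 4.17 CPM in HSC KO against 0.462 and 0 in HSC Sham (adjusted p = 0.0112). Alox5, the lipoxygenase of leukotriene synthesis, had 18.4, 12.4 and 12.1 CPM in HSC KO against 1.85 and 0.586 in HSC Sham, a change of 3.55 ± 0.64 (adjusted p = 0.0108, and 0.0538 without HSC Sham library 4). Igj, the immunoglobulin joining chain, had 9.97, 17.5 and 7.35 CPM in HSC KO against 0.858 and 1.17 in HSC Sham (adjusted p = 0.00978), and was lost without HSC Sham libraries 2_3 (0.147) and 4 (0.0615). Tenc1, a tensin of focal adhesions, had 3.39 to 7.52 CPM in HSC KO against 60.9 and 25.9 in HSC Sham, and Ephb4, a receptor of ephrins, 0.992 to 3.29 CPM in HSC KO against 21.5 and 9.76 in HSC Sham. Their falls of 2.98 (SE 0.64) and 2.77 (SE 0.65) were lost without HSC Sham library 2_3 (adjusted p = 0.159 and 0.251) and without HSC KO library 4 (0.0635 and 0.051), and that of Tenc1 also without HSC KO library 1 (0.0878). In MPP1, Tinagl1, a matrix protein, fell by 2.25 (SE 0.42, adjusted p = 0.0168), with 2.01 to 3.58 CPM in KO against 13.2 and 12.5 in Sham, and the call was lost without either Sham library (0.156 and 0.257) and without MPP1 KO libraries 1 (0.11) and 4 (0.0564).

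In MPP2, Epha2, an ephrin receptor and p53 target, had 16.9, 10.3 and 11.8 CPM in KO against 0.493 and 0.184 in Sham, a change of 5.22 ± 0.85 (adjusted p = 0.00285, and 0.0832 without MPP2 Sham library 2_3). St8sia6, a sialyltransferase, had 0.11, 1.06 and 1.78 CPM in MPP2 KO against 42.3 and 24.7 in MPP2 Sham and fell by 5.10 (SE 1.05, adjusted p = 0.0417), a call lost without any of 9 single libraries, at up to 0.203 without MPP2 KO library 2_3. Slc25a21, a mitochondrial carrier, had 4.88 to 12.9 CPM in MPP2 KO against 46.3 and 23.7 in MPP2 Sham and fell by 2.04 (SE 0.48, adjusted p = 0.0375), which was lost without any of 7 single libraries, at up to 1 without MPP2 Sham library 2_3.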

How the data were processed

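RNA from sorted HSC, MPP1 and MPP2 was sequenced from pools of mice. The authors deposited raw counts per gene for 23364 symbols and a table of normalized signal values for 12186 genes. Per the submitters' processing notes, reads were handled with TopHat2 2.0.9 and Bowtie 1.0.0 on mm9 after Trimmomatic 0.33, and with featureCounts, edgeR and R 3.1.2, and the strand setting of counting is not given in the sources used here. Of the symbols, 15 were written as dates, and 0 columns lacked a sample.

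Counts were tested with edgeR 4.0.16 in R 4.3.3 (quasi-likelihood test, TMM, filterByExpr with a least count of 10, Benjamini-Hochberg over all genes tested, threshold 0.05), with population as an additive factor and 11 residual degrees of freedom. Single populations and their difference used 6 group means (9 residual degrees of freedom), and comparisons with Het used all 24 libraries. The SE is approximate, the log2 change divided by the root of F. Library totals limit the precision of low genes. Scripts were tested on simulated data.

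Alternatives were other scalings and filters, DESeq2 1.42.0, limma 3.58.1 (trend and voom), summed counts, the deposited signal table (log2 of value plus 1), a replicate block and omitted libraries. Genes named were the 12 largest rises and falls with at least 5 CPM and no overlap, up to 4 called members of each list (2 where none passed), the 3 largest rises and falls in each population and the 5 smallest p of the difference between populations. Some genes that this rule picks are not reported here. Others are marked as chosen after their values were seen. The comparison, lists and members were chosen with earlier results of these data known.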

Additional observations from a re-analysis of the deposited data

Results flagged for a closer look

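The KO effect differed between HSC, MPP1 and MPP2 for 138 genes in the 15 libraries (edgeR quasi-likelihood test of both interaction terms, adjusted p under 0.05), against 1 gene with all 24 libraries. Among the genes named, the adjusted p of that difference was 0.000668 for Ckap2l, 0.00174 for Zwilch, 0.00248 for H2-Aa, and 0.00418 for Plk2, Clspn and Fmnl2. It was 0.00707 for Hlf, 0.0112 for Mecom, 0.0153 for Gata3, 0.0195 for Socs2 and Cenpa, 0.0197 for H2-Eb1, 0.0214 for Ly6a and 0.0256 for Zmat3. It was 0.0284 for Procr and Igj, 0.0358 for Sulf2 and 0.0414 for Plk1. The calls of Ckap2l, Zwilch, H2-Aa, Plk2 and Clspn held without any single library, and those of the others were lost without at least 1, for all but Igj and Plk1 most strongly without MPP2 Sham library 2_3.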

How the results depend on the processing

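Over all populations 516 genes were higher in KO, and under alternatives the number was 1250 as the mean of 3 population effects, 919 with DESeq2, 136 with a replicate block, 114 without all KO libraries numbered 1, 17 with the libraries numbered 2_3 alone, 133 in summed counts and 172 with limma-voom and a shared correlation of 0.149. The number lower was 210, and under alternatives 465 with DESeq2, 83 with the block, 129 without number 1, 20 with 2_3 alone, 482 with number 4 alone and 444 in the deposited signal table. With all 24 libraries the calls numbered 490 in HSC, 26 in MPP1, 135 in MPP2 and 1 for the difference between populations. With DESeq2 they were 1514, 306, 397 and 655, and with the block MPP1 had 109 and the difference 516. Het against Sham had 0 calls and 8 with DESeq2, an alternative chosen after seeing the data. Leaving out 1 library at a time gave 185 to 1011 higher and 86 to 314 lower genes, 180 to 1090 calls in HSC, 6 to 138 in MPP1, 46 to 330 in MPP2 and 21 to 238 for the difference. The cause of these shifts was not tested. No named gene past the threshold changed sign. Of 78 such genes 50 kept the call without any single library, 45 kept it in summed counts and 50 with the block. For KO and Sham libraries of the same number and population, 0 of 6 correlations of their deviations were over 0.1. The deviations of the 2 Sham libraries of a population mirror each other, so these correlations cannot decide whether the numbers pair KO with Sham. The summed test had 3 residual degrees of freedom and rests on a spread borrowed across genes. Low counts limit genes near 1 CPM.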

Other observations

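The labels give pools of male and female mice. Xist, transcribed from the inactive X chromosome, had 0.893 to 6.36 CPM in KO libraries and 1.6 to 6.51 CPM in Sham libraries. Ddx3y, a Y-linked RNA helicase, had 99 to 122 CPM in KO and 88.1 to 126 CPM in Sham, so the ranges of KO and Sham overlapped for both genes. Kdm5d and Uty, also Y-linked, had 51.1 to 76.7 and 52.6 to 71.2 CPM in KO libraries. In Sham libraries they had 48.4 to 59.1 and 39 to 66.5 CPM. Xist was thus low and the Y-linked genes were present in every library, and the share of male and female cells was not tested.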
